A study of Mus musculus with 12 samples.

Results

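The translation initiation factors (eIF) and elongation factors (eEF) were taken as the rows whose mouse symbol began with Eif or Eef followed by a number, leaving out 1 pseudogene and Eif2s3y. The rule used names and no measured value, and it gave 64 of the 15651 genes in the table. Of the 67 coding genes of these families in the GENCODE vM21 annotation, 3 were not listed in the table (Eef1a2, Eef1akmt4 and Eif4e3). The cells were c-Kit+ splenocytes of moribund mice with acute myeloid leukemia (AML). The 3 D/F mice carried Dnmt3a fl/fl, Flt3 ITD/ITD and Mx1Cre, and the 3 T/F mice carried Tet2 fl/fl, Flt3 ITD/ITD and Mx1Cre, on a C57BL6/J background. All groups therefore shared the Flt3 internal tandem duplication and the Mx1Cre transgene. Mx1Cre acted without induction through its leaky expression, so that 1 or both floxed alleles may have been deleted. From each mouse, 1 portion was given CCS1477, an inhibitor of the p300/CBP bromodomain, and another DMSO, for 6 h in vitro in medium with SCF, IL-6 and IL-3, and RNA was then sequenced. D/F cells received 4 µM and T/F cells 2 µM CCS1477, so dose and genotype cannot be told apart. This gave 12 libraries in 4 groups of 3, and the question was which transcripts of each leukemia changed when p300/CBP was inhibited. The ages of these mice were not given in the sources used here.

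Initiation factors bring the 40S ribosomal subunit, the initiator tRNA and the capped mRNA together and find the start codon. Elongation factors then deliver aminoacyl-tRNA to the ribosome and move it along the message. In leukemic cells the cap-binding step and the supply of initiator tRNA by eIF2 are known points of control, through 4E-BP repressors and eIF2 kinases.

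Expression is given as TPM, a unit of transcript abundance corrected for transcript length. Libraries summed to 914204 to 931697 TPM, and read depth was unknown. Kit was detected in every library at 22.8 to 149 TPM, all 7 progenitor markers were listed, and Dnmt3a and Tet2 were at 29.3 to 57.2 TPM and 24.6 to 43.4 TPM. A gene total does not report on a floxed exon. The summed progenitor markers were at 3625 to 10020.1 TPM (DMSO) and 802 to 4275 TPM (CCS1477) in D/F. T/F gave 4151 to 6377 TPM and 1665 to 3002 TPM. The 7 mature neutrophil markers, all listed, summed in the same order to 2681 to 9425 TPM and 1629 to 9322 TPM in D/F. Those of T/F were 2333 to 7155 TPM and 2492 to 6900 TPM. The 4 of 5 macrophage markers listed, without C1qa, summed to 16.0 to 22.3 and 2.72 to 4.31 TPM in D/F. T/F had 19.3 to 32.1 and 5.93 to 12.3 TPM. The T cell (3 of 5, without Cd3e and Cd3g) and erythroid (4 of 5, without Hba-a1) lists summed to 10.8 to 25.7 TPM in all libraries. Cd79b, a subunit of the B cell receptor, was at 10.4 to 22.8 TPM with DMSO and 3.64 to 8.22 TPM with CCS1477 in D/F, and T/F had 15.3 to 18.1 and 10.9 to 13.4 TPM, so that its groups did not overlap in either genotype. The part of these shifts in the results on translation factors was not tested, and in such bulk samples a change in the cells present and a change in RNA per cell cannot be told apart. D/F replicate 2 stood apart from its group with both treatments. The median distance of the 64 genes from the mean of the other libraries in the group was 0.34 and 0.31 on the log2 scale in its DMSO and CCS1477 libraries, against 0.037 to 0.22 in the remaining libraries.

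CCS1477 lowered more translation factor genes than it raised. Over both genotypes 25 of the 64 fell and 10 rose at an adjusted p under 0.05 (limma on log2(TPM + 1), genotype as a covariate), where 19.6% of the 15583 genes tested fell and 25.8% rose. With the mouse as a block, 32 fell and 10 rose, beside 25.9% and 34.5% of all genes. The median log2 fold change was -0.15 over the 64 genes and 0.07 over all genes. All 64 genes passed the filter on low values. Of the 64, 4 fell by more than 2-fold (Eif1a, Eif1ad, Eef2k and Eef1e1), near the share of 5.7% over all genes. None rose by more than 2-fold, against 3.1% of all genes. In all 6 mice 32 of the genes (50%) were lower with CCS1477 and 11 (17.2%) were higher, where 24.2% and 31.8% of all genes were. The rises were fewer without single mice: 10 in the full set became 6 without D/F replicate 1 or 3, and 5 without T/F replicate 1 or 2. The share of all genes called in either direction fell as well. It went from 45.3% to 40.0% and 38.7% without these D/F mice, and to 36.3% and 36.5% without these T/F mice.

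In T/F 32 genes fell and 6 rose, beside 17.6% and 25.8% of the 15256 genes tested. Without T/F replicate 1 the counts were 19 and 3, and without T/F replicate 2 they were 21 and 1. These fits called 22.8% and 20.9% of all genes in either direction, against 43.4% with all T/F mice. In D/F 6 fell (Eif1a, Eef2k, Eif1ad, Eef1e1, Eif3j1 and Eif4b), beside 6.51% of the 15501 genes tested, and 0 rose, beside 5.14%. The D/F call of Eef1e1 was lost with a pseudocount of 0.1 (adjusted p = 0.0570) or after rescaling to the median gene (0.0693), where 5 and 4 of the 64 fell. In the limma fit with neither change 19 of the 64 had an unadjusted p under 0.05, as had 4712 of the 15501 genes. The count was thus near the share over all genes. With the mouse as a block 23 fell and 5 rose in D/F, beside 18% and 21.4% of all genes, and 32 fell and 9 rose in T/F, beside 22.9% and 31.2%. All 23 of these falls and all 5 rises in D/F were also called in T/F with the block. The same overlap was not counted over all genes, so it cannot be read as a trait of these genes. The D/F counts depended on the mice included, as did those of all genes. Without D/F replicate 1 or D/F replicate 3 the limma fit called 0 of all 15539 and 15545 genes tested, and so 0 of the 64. At an unadjusted p under 0.05 were 5 and 9 of the 64, beside 2494 and 2330 of all genes. Without D/F replicate 2 the fit called 9 lower and 2 higher, where 24.6% of all genes were called in either direction. The median SD of log2 levels within a group was 0.23 (DMSO) and 0.22 (CCS1477) in D/F, against 0.056 and 0.051 in T/F.

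**Figure D1:**
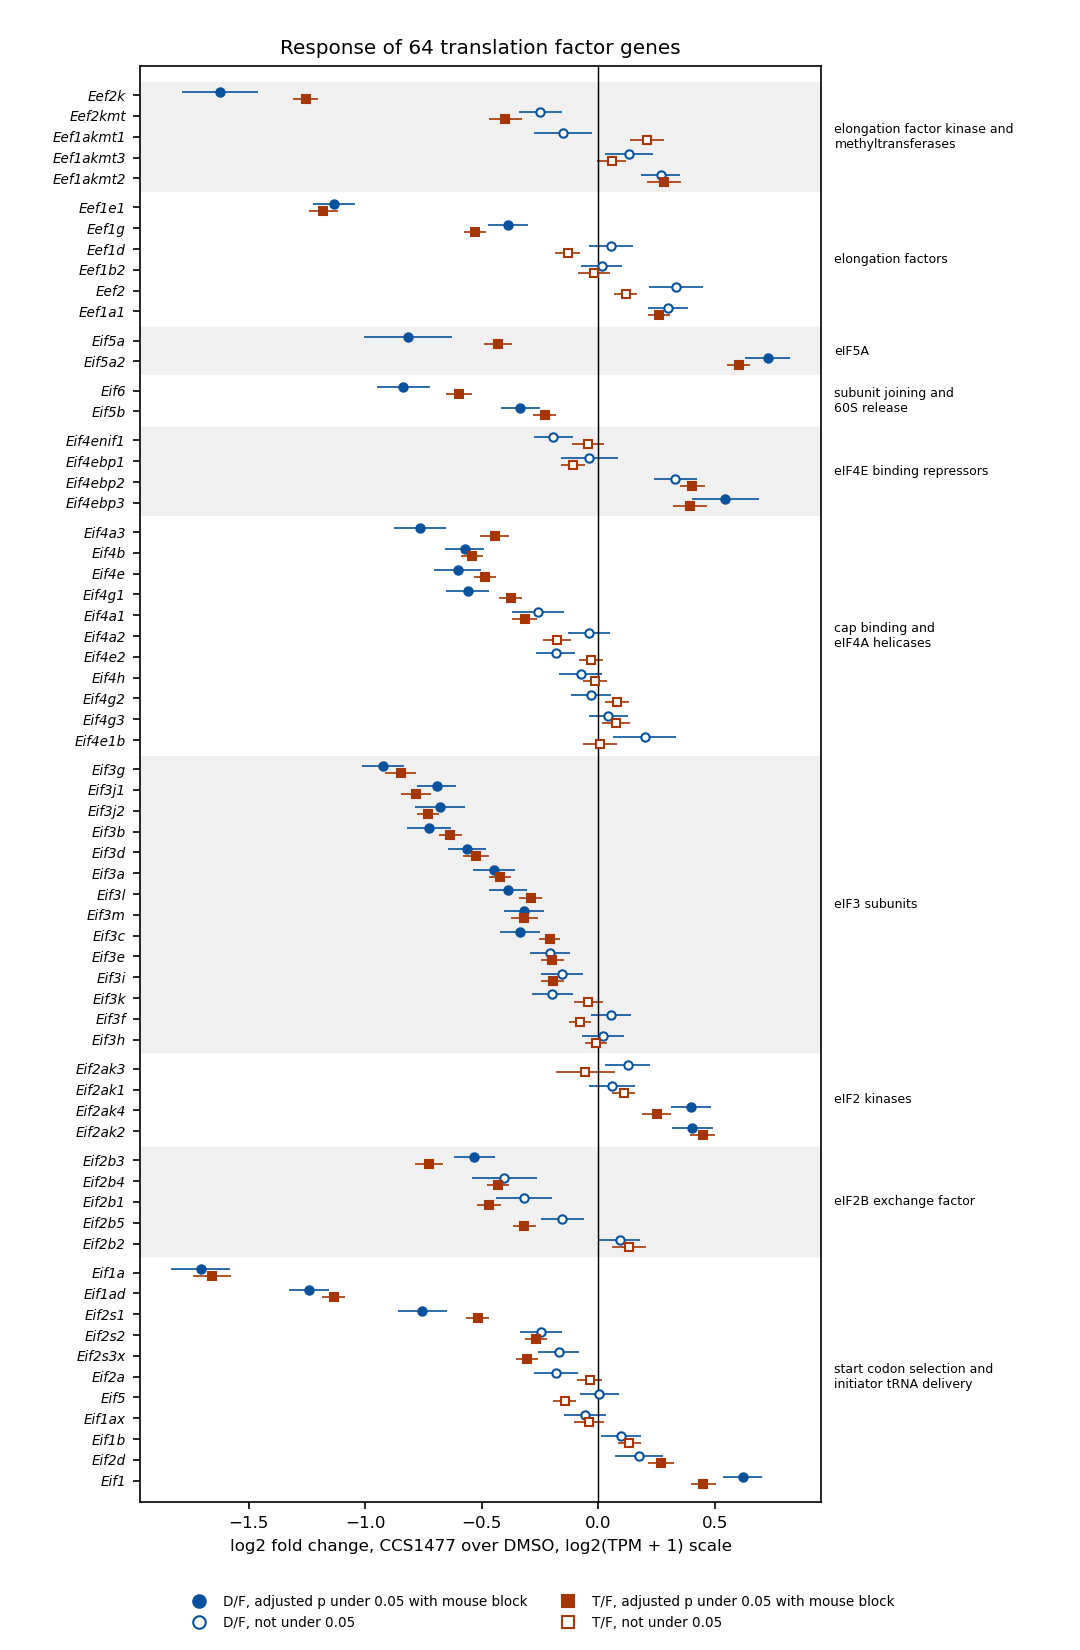
Log2 fold change with CCS1477 against DMSO (x axis, log2(TPM + 1) scale) for each of the 64 genes (y axis, grouped by role) in D/F (circles) and T/F (squares), with the SE of the fit with a mouse block as bars and filled symbols for an adjusted p under 0.05 in that fit. The points furthest to the left are Eif1a, at -1.71 and -1.66, and the eIF3 subunits range from -0.92 for Eif3g in D/F to 0.05 for Eif3f in D/F.

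Of 11 genes grouped under start codon selection and initiator tRNA delivery, 3 fell over both genotypes (Eif1a, Eif1ad and Eif2s1). The 2 that rose were Eif1 and Eif2d. These were 27.3% and 18.2% of the group, where 19.6% of all genes fell and 25.8% rose, so the counts were near those shares. The largest fall of all 64 genes was that of Eif1a, on chromosome 18, which encodes eIF1A, a factor that binds the decoding site of the 40S subunit during scanning. In the D/F mice its values were 138, 101 and 146 TPM with DMSO and 36.9, 36.8 and 40.6 TPM with CCS1477 for replicates 1 to 3. The T/F mice gave 136, 135 and 135 TPM with DMSO and 38.8, 40.5 and 47.8 TPM with CCS1477. Every library with CCS1477 lay below every library with DMSO, and the cells of each mouse kept 26.8% to 36.6% of their own DMSO level. D/F had a log2 fold change of -1.71 (limma adjusted p = 0.00730) and T/F one of -1.66 (adjusted p = 3.37e-04), and the value over both genotypes was -1.68 ± 0.10 (SE) (adjusted p = 7.09e-07). Without D/F replicate 1 or D/F replicate 3 the D/F value was not called (limma adjusted p = 0.13 and 0.18). It stayed at -1.62 and -1.65, in fits that called 0 of all genes.

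The X-linked paralog Eif1ax, which encodes almost the same protein, had group means of 85.2 ± 18.5 and 82.6 ± 22.9 TPM in D/F, against 93.1 ± 10.2 and 90.5 ± 9.99 TPM for T/F (SD, n = 3), with DMSO and CCS1477 in that order. Its groups overlapped in both genotypes, and its limma adjusted p over both was 0.81 (0.42 with the block). The ratio of Eif1a to Eif1ax, a pair chosen after its values were seen, lay with DMSO at 1.40 to 1.64 for D/F and 1.33 to 1.64 for T/F. With CCS1477 it was 0.382 to 0.608 and 0.409 to 0.601. Eif1a was thus the more abundant of the pair in all 6 DMSO libraries and the less abundant in all 6 CCS1477 libraries. Of the 31-base words in the annotated transcripts, 4.51% of those of Eif1a and 0.802% of those of Eif1ax occurred in another gene.

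Eif1ad (chr19:5366741-5371526, plus strand, GRCm38), which encodes a protein with an eIF1A-like domain that acts in maturation of the 40S subunit, was at 71.1, 57.1 and 86.8 TPM with DMSO and 30.2, 22.4 and 37.1 TPM with CCS1477 in D/F. In T/F its values were 73.9, 68.4 and 74.8 TPM with DMSO and 32.4, 31.9 and 32.7 TPM with CCS1477. Its groups did not overlap in either genotype, and its log2 fold change was -1.19 ± 0.13 (SE) over both (limma adjusted p = 2.74e-05). Eif1 (chr11:100319885-100322096, plus strand), whose product guards against initiation at non-AUG codons, went the other way. It was at 961, 799.6 and 977 TPM with DMSO and 1466, 1277 and 1453 TPM with CCS1477 in D/F. The T/F values were 989, 960.3 and 956 TPM with DMSO and 1283, 1352 and 1336 TPM with CCS1477. Each mouse reached 129.7% to 159.8% of its DMSO level and the groups were separate in both genotypes, at a log2 fold change of 0.53 ± 0.08 (SE) (adjusted p = 1.81e-04 over both). In D/F alone the limma adjusted p of Eif1 was 0.0523, and 0.0112 with the mouse as a block. Its paralog Eif1b had a log2 value of 0.12 and was not called (adjusted p = 0.33).

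**Figure D2:**
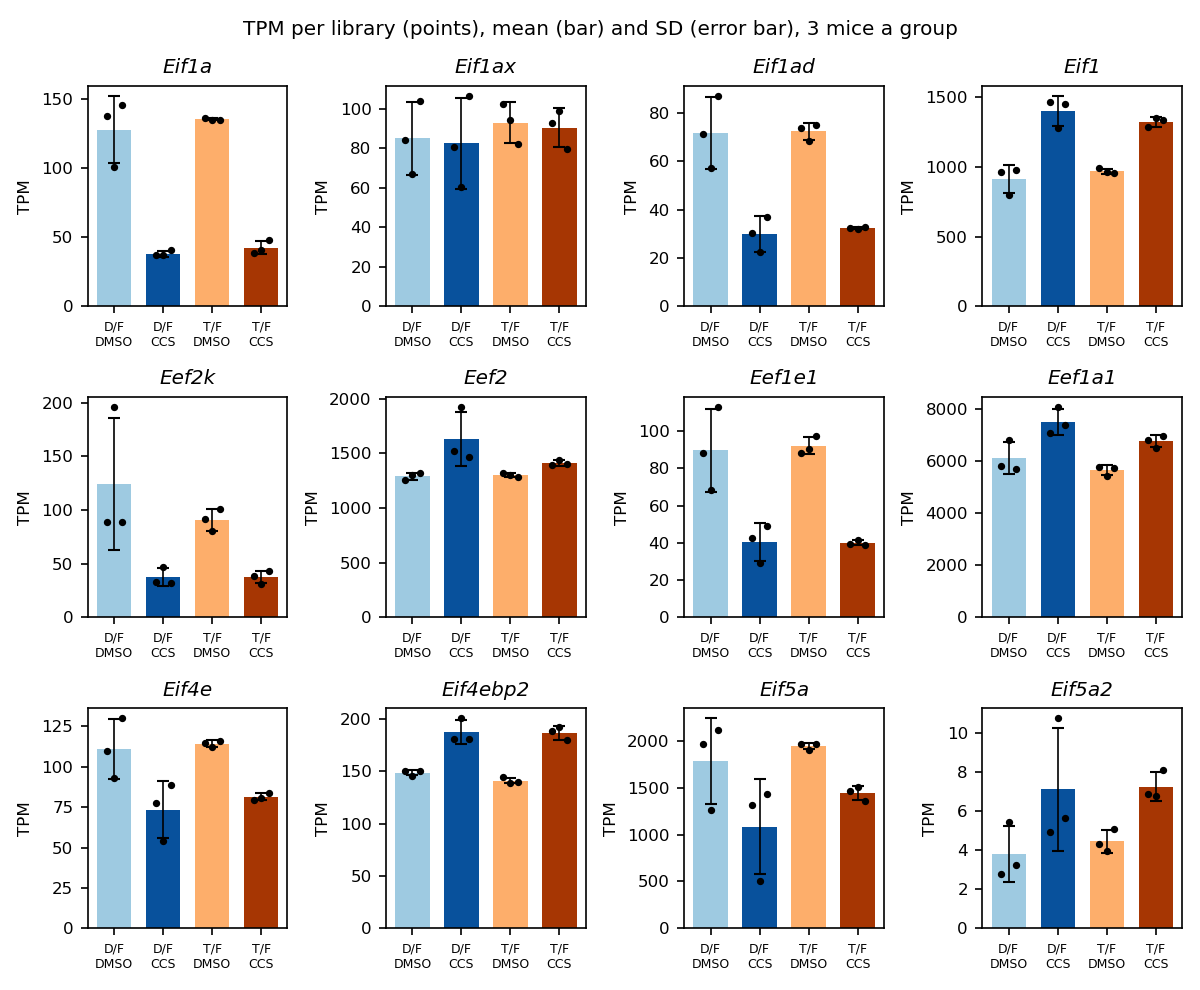
TPM (y axes, each from 0) of 12 genes in the 4 groups (x axes, CCS for CCS1477), with each library as a point, the mean of 3 mice as a bar and the SD as an error bar. Eif1a stands above Eif1ax in group mean with DMSO (128 against 85.2 TPM in D/F) and below it with CCS1477 (38.1 against 82.6 TPM), and Eif1 rises from 913 to 1399 TPM in the D/F mean, and 969 to 1324 TPM in that of T/F.

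The 3 subunits of eIF2, the GTPase that carries the initiator tRNA, had lower values with CCS1477 in all 6 mice. Eif2s1, the alpha subunit that the eIF2 kinases phosphorylate, was at 85.7, 74.3 and 103 TPM with DMSO and 53.3, 38.0 and 65.4 TPM with CCS1477 in D/F. In the T/F mice it was at 93.7, 88.5 and 91.7 TPM with DMSO and 63.5, 63.6 and 63.3 TPM with CCS1477. No library with CCS1477 reached a DMSO library of its genotype, and the log2 fold change over both was -0.64 ± 0.13 (SE) (limma adjusted p = 0.00175). In D/F alone the limma adjusted p was 0.0925, and the fall was called with the block (0.0116) or with the 4 groups fitted together (0.00986). The beta subunit Eif2s2 and the gamma subunit Eif2s3x had log2 values of -0.26 and -0.24, with limma adjusted p = 0.24 and 0.28 over both genotypes, and 0.00213 and 0.00558 with the mouse as a block. Eif2s3x was highest in both libraries of D/F replicate 3, at 339.6 and 294 TPM, against 148 to 196 TPM elsewhere, and 35.3% of its 31-base words were shared with other genes. Eif2d, a non-canonical factor that acts on post-termination ribosomes, rose by a log2 value of 0.22 ± 0.07 (SE) (adjusted p = 0.0183). The other members of this group, Eif1ax, Eif1b, Eif2a and Eif5, were called in none of these fits, with log2 values from -0.11 to 0.12 over both genotypes.

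Of the 5 subunits of eIF2B, the exchange factor that reloads eIF2 with GTP, 3 fell over both genotypes (Eif2b1, Eif2b3 and Eif2b4). This was 60% of the subunits, where 19.6% of all genes fell. Eif2b5 joined the falls with the mouse as a block (limma adjusted p = 0.11 without and 0.00803 with it). Eif2b3, a subunit of the catalytic part of the complex, had the lowest fold change of them, with means of 47.5 ± 4.58 and 32.6 ± 4.06 TPM in D/F, against 47.3 ± 3.18 and 28.1 ± 1.14 TPM for T/F (SD, n = 3). Its log2 fold change was -0.63 ± 0.08 (SE) over both genotypes (adjusted p = 1.39e-04). Eif2b2 was not called and had a value of 0.11, higher with CCS1477 in 5 of 6 mice.

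Of the 4 eIF2 kinases, 2 rose over both genotypes and none fell, where 25.8% of all genes rose and 19.6% fell. Eif2ak2 (chr17:78852564-78882573, minus strand) encodes PKR, the kinase activated by double-stranded RNA. Its values were 54.8, 75.3 and 50.1 TPM with DMSO and 72.4, 94.4 and 70.8 TPM with CCS1477 in D/F. T/F mice had 56.0, 56.6 and 60.1 TPM with DMSO and 73.1, 78.2 and 86.0 TPM with CCS1477. All 6 mice were higher with CCS1477, at 125% to 143% of their DMSO level, and the groups were separate in T/F and overlapped in D/F, where D/F replicate 2 was highest with each treatment. The log2 fold change over both genotypes was 0.43 ± 0.11 (SE) (limma adjusted p = 0.00849), and the D/F value passed with the block (adjusted p = 0.26 without and 0.0306 with it). Eif2ak4, which encodes the amino acid sensor GCN2, rose by 0.32 ± 0.11 (SE) on the log2 scale (adjusted p = 0.0292). Eif2ak1 (HRI) and Eif2ak3 (PERK) had log2 values of 0.08 and 0.04 and were not called.

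The eIF3 complex, which holds the 40S subunit ready for the mRNA, had 14 subunit genes in the table. Over both genotypes 9 of them fell (64.3%) and none rose, where 19.6% of all genes fell and 25.8% rose. The 9 were Eif3a, Eif3b, Eif3d, Eif3e, Eif3g, Eif3j1, Eif3j2, Eif3l and Eif3m. With the mouse as a block 11 fell, beside 25.9% of all genes. Eif3c and Eif3i were among the 11, at log2 values of -0.27 and -0.18 (limma adjusted p = 0.16 and 0.13 without the block). Eif3f, Eif3h and Eif3k were not called. Among those that fell, Eif3d, Eif3e, Eif3l and Eif3m had values of -0.54, -0.20, -0.34 and -0.32. In D/F 1 of the 14 fell without the block (Eif3j1) and 9 with it, beside 6.51% and 18% of all genes. In T/F 11 fell in either fit, beside 17.6% and 22.9%. The group median of the log2 fold changes was -0.33 over both genotypes.

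The subunits kept different shares of their DMSO level. Eif3g (chr9:20894349-20898623, minus strand), an RNA-binding subunit, was at 148, 124 and 186 TPM with DMSO and 81.6, 60.1 and 99.5 TPM with CCS1477 in D/F. In T/F the values were 158, 157 and 165 TPM with DMSO and 93.3, 88.7 and 83.8 TPM with CCS1477. The groups did not overlap, the mice kept 48.7% to 59.0%, and the log2 fold change was -0.89 ± 0.13 (SE) over both (limma adjusted p = 1.95e-04). In D/F alone the adjusted p was 0.0601, and 0.00662 with the block. Eif3j1 (chr2:122028546-122056598, plus strand), a loosely held subunit that contacts the 40S decoding center, was at 46.2, 46.3 and 50.7 TPM with DMSO and 28.0, 28.9 and 30.5 TPM with CCS1477 in D/F. The T/F libraries gave 45.7, 46.3 and 51.8 TPM with DMSO and 27.8, 27.1 and 27.3 TPM with CCS1477. Its groups were separate in both genotypes, at -0.74 ± 0.06 (SE) (adjusted p = 7.08e-06). Its copy Eif3j2 had a log2 value of -0.70 ± 0.13 (SE) (adjusted p = 0.00118), but 94.9% of its 31-base words occurred in other genes, mainly Eif3j1, so its TPM of 13.7 to 35.4 are uncertain as a separate measurement.

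Eif3b, a scaffold subunit, kept 54.6% to 66.6% of the DMSO level of the same mouse, and Eif3a, the largest subunit, kept 68.3% to 77.4%. Eif3a was at 171, 148 and 192 TPM with DMSO and 126, 101 and 149 TPM with CCS1477 in D/F. The T/F values were 174, 170.0 and 169.8 TPM with DMSO and 129, 125 and 129 TPM with CCS1477. The T/F groups were separate and the D/F groups overlapped, and its log2 fold change over both was -0.43 ± 0.10 (SE) (limma adjusted p = 0.00351). At the other end, Eif3h kept 94.6% to 105% and Eif3f 93.2% to 106%, with log2 values of 0.00 and -0.01. Both encode subunits that pair through MPN domains. Among the 12 subunits other than the Eif3j copies, the most abundant transcript was 1.67 to 2.24 times the least abundant in the DMSO libraries and 2.55 to 4.65 times in the CCS1477 libraries, so these ranges did not overlap. The sum of the 12 ran from 2204 to 2725 TPM with DMSO and 1792 to 2189.8 TPM with CCS1477.

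**Figure D3:**
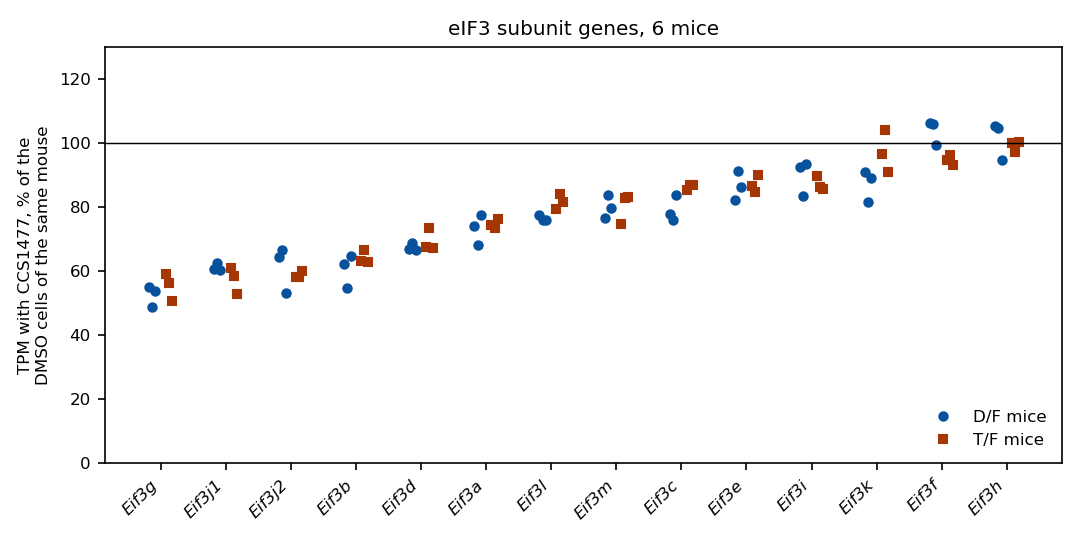
TPM with CCS1477 as a percentage of the DMSO cells of the same mouse (y axis) for the 14 eIF3 subunit genes (x axis, ordered by the mean over 6 mice), with 1 point for each D/F mouse (circles) and T/F mouse (squares) and a line at 100%. Eif3g lies at 48.7% to 59.0% and Eif3h at 94.6% to 105%.

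Among the 11 genes of cap binding and the eIF4A helicases, 4 fell over both genotypes (Eif4a3, Eif4b, Eif4e and Eif4g1). Eif4a1 also fell with the mouse as a block, and none rose. Without the block the falls were 36.4% of the group, where 19.6% of all genes fell and 25.8% rose. Eif4e (chr3:138526179-138559696, plus strand), which binds the mRNA cap, was at 110.0, 93.2 and 129.9 TPM with DMSO and 77.6, 54.2 and 88.8 TPM with CCS1477 in D/F. In the T/F mice it was at 115, 112 and 116 TPM with DMSO and 79.7, 80.6 and 83.8 TPM with CCS1477. The groups were separate in both genotypes and the mice kept 58.2% to 72.1%, for a log2 fold change of -0.55 ± 0.12 (SE) (limma adjusted p = 0.00310). Eif4g1 (chr16:20668313-20692884, plus strand), the scaffold that joins eIF4E to eIF4A and eIF3, was at 436, 351 and 484 TPM with DMSO and 296, 221 and 350.3 TPM with CCS1477 in D/F. T/F mice had 426, 424 and 438 TPM with DMSO and 327, 334 and 329.7 TPM with CCS1477. It too had separate groups, at -0.47 ± 0.12 (SE) (adjusted p = 0.00630). In D/F alone neither passed (limma adjusted p = 0.14 and 0.15), and both did with the block (0.0166 and 0.0157) or with the 4 groups fitted together (0.0236 and 0.0260).

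Eif4b, a cofactor of the eIF4A helicase, had means of 281 ± 9.67 and 188 ± 6.66 TPM in D/F, against 289 ± 4.00 and 198 ± 1.27 TPM for T/F (SD, n = 3). Its groups were separate in both genotypes, and its log2 fold change was -0.56 ± 0.05 (SE) (limma adjusted p = 1.70e-05). Eif4a1 (chr11:69666936-69672423, minus strand), the main eIF4A helicase in growing cells, was at 1304, 1023 and 1512 TPM with DMSO and 1169, 737 and 1365 TPM with CCS1477 in D/F. In T/F the values were 1341, 1328 and 1305 TPM with DMSO and 1089, 1106 and 999 TPM with CCS1477. It was lower in 6 of 6 mice, with groups that overlapped in D/F only, at -0.29 ± 0.14 (SE) (adjusted p = 0.12, 0.00441 with the block and 0.0140 without D/F replicate 2). Eif4a2, its paralog, was at 497, 593 and 519 TPM with DMSO and 511, 537 and 512 TPM with CCS1477 in D/F. The T/F libraries gave 508, 499 and 525 TPM with DMSO and 433, 427 and 498 TPM with CCS1477. Its log2 value of -0.11 ± 0.07 (SE) was not called (adjusted p = 0.24, 0.12 with the block). Of the 31-base words of Eif4a1 and Eif4a3, 31.1% and 31.2% were shared with other genes, most of them with pseudogenes for Eif4a1. Eif4a3, the helicase of the exon junction complex, fell, with a log2 value of -0.61 ± 0.14 (SE) (adjusted p = 0.00448). Eif4e1b, Eif4e2, Eif4g2, Eif4g3 and Eif4h were not called in any of these fits, with log2 values over both genotypes from -0.11 to 0.10.

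Of the 4 genes for repressors or partners that bind eIF4E, 2 rose over both genotypes (Eif4ebp2 and Eif4ebp3) and none fell. Of all genes 25.8% rose and 19.6% fell. Eif4ebp2 (chr10:61428491-61452661, minus strand) was at 150.5, 146 and 150.3 TPM with DMSO and 181, 201 and 181 TPM with CCS1477 in D/F. The T/F values were 144, 139 and 140.4 TPM with DMSO and 189, 193 and 179.9 TPM with CCS1477. All CCS1477 libraries were above all DMSO libraries, at 0.37 ± 0.06 (SE) (limma adjusted p = 4.33e-04). Eif4ebp3, a low transcript, was at 5.66, 8.90 and 7.22 TPM with DMSO and 10.7, 14.1 and 8.54 TPM with CCS1477 in D/F. In the T/F mice it was at 5.74, 8.01 and 10.8 TPM with DMSO and 8.70, 10.8 and 13.1 TPM with CCS1477. It was higher in 6 of 6 mice although the groups overlapped, at 0.47 ± 0.17 (SE) (adjusted p = 0.0410, 0.00271 with the block). The call was lost without D/F replicate 1 or 3 or T/F replicate 1 or 2 (adjusted p = 0.0546 to 0.12), and 66.4% of its 31-base words lay in AC115631.1. Eif4ebp1, the best known of the repressors, was at 145, 59.9 and 114 TPM with DMSO and 163, 49.0 and 114 TPM with CCS1477 in D/F. T/F mice had 114, 120.2 and 99.4 TPM with DMSO and 103, 109.8 and 96.5 TPM with CCS1477. D/F replicate 2 held the lowest value with each treatment, the groups overlapped in both genotypes, and the log2 value of -0.07 ± 0.27 (SE) was not called (adjusted p = 0.85). Eif4enif1, which encodes the eIF4E transporter, had a log2 value of -0.12 and was not called either (adjusted p = 0.22).

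Both factors of subunit joining and 60S release fell over both genotypes, where 19.6% of all genes did. Eif6, which keeps 60S subunits from joining too early, went from 158 ± 35.8 to 88.2 ± 20.9 TPM in D/F (SD, n = 3). In T/F it went from 156 ± 6.71 to 103 ± 6.41 TPM, and over both genotypes it had a log2 fold change of -0.72 ± 0.14 (SE) (limma adjusted p = 0.00141). Eif5b, the GTPase that joins the subunits, fell, with a log2 value of -0.28 ± 0.06 (SE) (adjusted p = 0.00330), from means of 26.1 and 25.4 TPM with DMSO in D/F and T/F.

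The 2 genes for eIF5A, the hypusine-bearing factor that relieves stalled ribosomes, had log2 values of opposite sign. Eif5a, the second most abundant of the 64 transcripts with DMSO, was at 1965, 1262 and 2119 TPM with DMSO and 1315, 507 and 1436 TPM with CCS1477 in D/F. In T/F the values were 1965, 1907 and 1962 TPM with DMSO and 1466, 1506 and 1356 TPM with CCS1477. It was lower in 6 of 6 mice and lowest in D/F replicate 2, with groups that overlapped in D/F and were separate in T/F. Its log2 value of -0.63 ± 0.24 (SE) over both genotypes missed the limit (limma adjusted p = 0.0507) and passed it with the mouse as a block (adjusted p = 0.00403) or without D/F replicate 2 (log2 value -0.49, adjusted p = 1.08e-04). Eif5a2 (chr3:28781276-28798846, plus strand) was at 2.77, 5.44 and 3.25 TPM with DMSO and 4.96, 10.8 and 5.66 TPM with CCS1477 in D/F. The T/F libraries gave 4.30, 3.96 and 5.10 TPM with DMSO and 6.90, 6.76 and 8.14 TPM with CCS1477. It was higher in 6 of 6 mice, at 159% to 198% of the DMSO level, with D/F replicate 2 the highest of its group with each treatment, and rose by 0.66 ± 0.18 (SE) (adjusted p = 0.00987). Even with CCS1477 the ratio of Eif5a to Eif5a2 stayed at 47.1 to 265 for D/F and 167 to 223 for T/F.

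Of the 6 genes grouped as elongation factors 2 fell (Eef1e1 and Eef1g) and 2 rose (Eef1a1 and Eef2). These were 33.3% each way, where 19.6% of all genes fell and 25.8% rose. Eef1e1 (chr13:38644207-38659058, minus strand), which encodes a component of the aminoacyl-tRNA synthetase complex also called AIMP3, was at 88.0, 68.2 and 113 TPM with DMSO and 42.8, 29.0 and 49.2 TPM with CCS1477 in D/F. The T/F values were 88.5, 90.6 and 97.4 TPM with DMSO and 39.6, 41.6 and 39.1 TPM with CCS1477. Its groups were separate, the mice kept 40.1% to 48.7%, and the log2 fold change was -1.16 ± 0.14 (SE) (limma adjusted p = 6.47e-05). Eef1g, a subunit of the exchange factor of eEF1A, fell by 0.46 ± 0.07 (SE) on the log2 scale (adjusted p = 2.04e-04), whereas the other subunits Eef1b2 and Eef1d had log2 values of -0.0029 and -0.04 and were not called. Eef1a1 (chr9:78478449-78489151, minus strand), which delivers aminoacyl-tRNA to the ribosome, was the most abundant of the 64 transcripts. It was at 5814, 6814 and 5720.2 TPM with DMSO and 7091, 8066 and 7374 TPM with CCS1477 in D/F. In the T/F mice it was at 5791, 5424 and 5744 TPM with DMSO and 6834, 6508 and 6964 TPM with CCS1477. All CCS1477 libraries were above the DMSO libraries of their genotype, and it rose by 0.28 ± 0.07 (SE) (adjusted p = 0.00611), a direction that turned under quantile normalization to a log2 value of -0.12 (adjusted p = 0.24). Of the 31-base words of Eef1a1 and Eef1g, 49.8% and 47.6% occurred in other genes.

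Eef2, the GTPase that moves the ribosome by a codon, and Eef2k, the kinase that inhibits it, changed in opposite directions. Eef2 (chr10:81176631-81182498, plus strand) was at 1254, 1301 and 1316 TPM with DMSO and 1518, 1919 and 1469 TPM with CCS1477 in D/F. T/F mice had 1318, 1302 and 1281 TPM with DMSO and 1389.7, 1440.0 and 1399 TPM with CCS1477. The CCS1477 libraries were above the DMSO libraries in each genotype, at 0.22 ± 0.08 (SE) (limma adjusted p = 0.0396). That call was lost without any single mouse other than D/F replicate 2 (adjusted p = 0.0692 to 0.0943), and under rescaling to the median gene (0.16, adjusted p = 0.15) or quantile normalization (adjusted p = 0.0575). Eef2k (chr7:120842831-120907450, plus strand) was at 89.2, 195 and 88.5 TPM with DMSO and 33.4, 47.0 and 31.9 TPM with CCS1477 in D/F. In T/F the values were 91.4, 80.5 and 101 TPM with DMSO and 38.4, 31.5 and 43.0 TPM with CCS1477. Its groups were separate, D/F replicate 2 was highest with each treatment, and each mouse kept 24.1% to 42.6%. For Eef2k the log2 fold change reached -1.62 in D/F (limma adjusted p = 0.0355), -1.26 in T/F (adjusted p = 0.00156) and -1.44 ± 0.20 (SE) over both (adjusted p = 1.73e-04). The D/F call of Eef2k was lost without D/F replicate 1 or D/F replicate 3 (limma adjusted p = 0.22 and 0.26). Its log2 values there were -1.74 and -1.71, in fits that called 0 of all genes. Among the methyltransferases of the elongation factors, Eef2kmt fell (-0.32 ± 0.07 (SE), limma adjusted p = 0.00292), Eef1akmt2 rose (0.27 ± 0.10 (SE), adjusted p = 0.0361), and Eef1akmt1 and Eef1akmt3 had log2 values of 0.03 and 0.09 and were not called. Eef1akmt2 was at 17.3, 21.4 and 19.3 TPM with DMSO and 20.9, 27.0 and 22.7 TPM with CCS1477 in D/F. The T/F libraries gave 13.8, 17 and 18.8 TPM with DMSO and 18.9, 19.7 and 21.9 TPM with CCS1477, higher in 6 of 6 mice, and its call was lost without any single mouse other than D/F replicate 2 (limma adjusted p = 0.0538 to 0.0885).

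The summed TPM of the 64 genes was 20896 to 22922 with DMSO and 20882 to 22684 with CCS1477 for D/F, which overlapped. For T/F it was 21040.2 to 21860.4 and 20727 to 21009, which did not. The eIF5A genes took 1267 to 2123 TPM of that sum with DMSO and 518 to 1441 TPM with CCS1477 for D/F. Their T/F sums were 1911 to 1969 TPM and 1365 to 1512 TPM. The 6 genes grouped as elongation factors took 8770.0 to 9789 TPM and 10129.8 to 11479 TPM for D/F. Their T/F sums were 8445 to 8986 TPM and 9336 to 9858 TPM. Eef1a1 made up most of the latter sum.

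Ratios of 2 genes within a library do not depend on how that library was scaled. For 7 pairs of paralogs or partners the change from DMSO to CCS1477 was taken within each mouse, and it had the same direction in 6 of 6 mice for every pair. The exact sign-flip permutation test (two-sided, 6 mice) gave p = 0.03125 for each, the smallest it can give, and 0.03125 after adjustment over the 7 pairs. The pairs were chosen with earlier results of these data known, and pairs of other genes were not tested. Among all single genes, 24.2% were lower and 31.8% higher in all 6 mice. The ratio of Eef2 to Eef2k lay with DMSO at 6.65 to 14.9 for D/F and 12.7 to 16.2 for T/F. With CCS1477 it was 40.8 to 46.0 and 32.5 to 45.7, a mean log2 change of 1.69 ± 0.48 (SD). The ratio of Eif4e to its repressor Eif4ebp1 changed by -0.48 ± 0.12, and that of Eif4ebp1 to Eif4ebp2 by -0.44 ± 0.24. Among paralogs the change was -0.18 ± 0.12 for Eif4a1 to Eif4a2, -0.53 ± 0.11 for Eif4g1 to Eif4g3 and -1.42 ± 0.45 for Eif5a to Eif5a2. The ratio of Eif2s1 to the kinase Eif2ak3 changed by -0.68 ± 0.36. Pairs that share a gene are not independent of each other, and the pair of Eef1a1 with Eef1a2 was not tested since Eef1a2 was not listed.

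**Figure D4:**
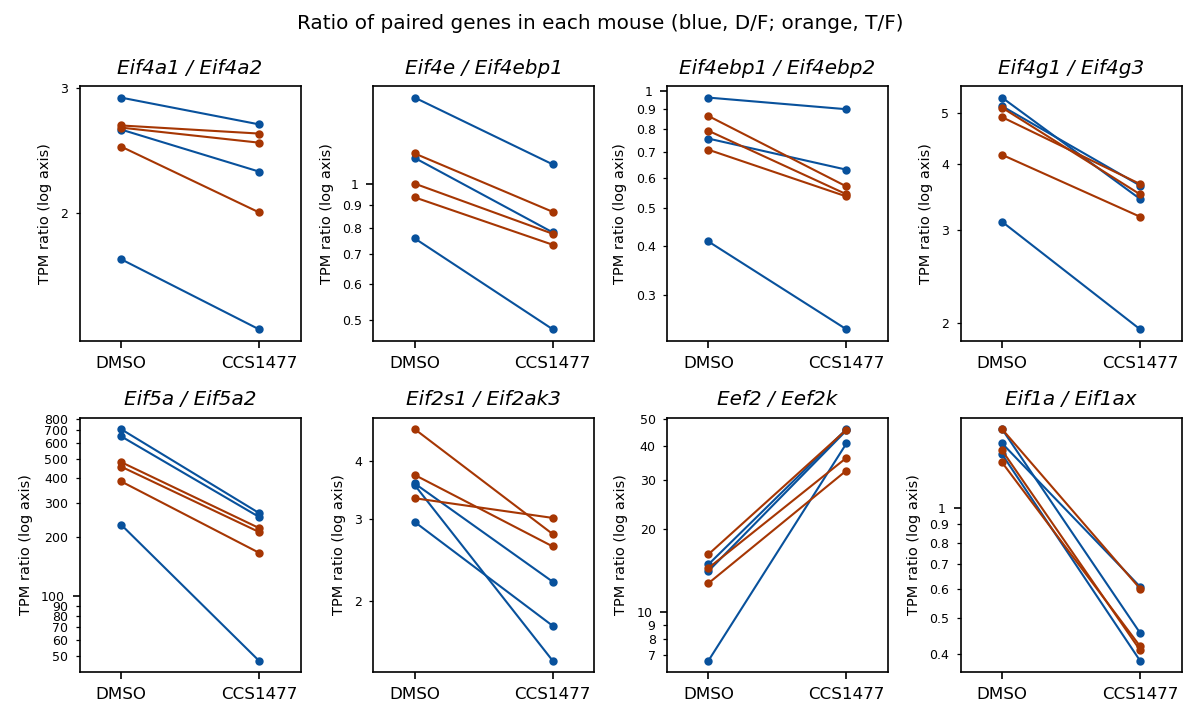
Ratio of TPM of 2 genes (y axes, log scale) with DMSO and CCS1477 (x axes), with the libraries of each mouse joined by a line, blue for D/F and orange for T/F. All 6 lines fall in each panel but that of Eef2 to Eef2k, where all 6 rise, and the pair of Eif1a and Eif1ax was chosen after its values were seen.

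The genotypes were compared with DMSO alone. By limma 0 of the 64 genes differed between T/F and D/F at an adjusted p under 0.05. Of all 15265 genes 5 were called (0.0197% lower and 0.0131% higher in T/F). At an unadjusted p under 0.05 were 0 of the 64 and 939 of all genes. The log2 differences, T/F minus D/F, ran from -0.35 for Eef2k to 0.22 for Eif2s2. With CCS1477, 0 of the 64 were called, where 0.0197% of the 15199 genes tested were lower and 0.0132% higher in T/F. An unadjusted p under 0.05 was found for 3 of the 64 (Eif2ak3, Eef1akmt1 and Eef2kmt). This was a smaller share than the 1643 of all genes. The difference between the CCS1477 responses of the genotypes, T/F minus D/F, was tested in a fit of the 4 groups, and 0 of the 64 genes were called in either direction, nor any of the 15583 genes. None of the 64 and 659 of all genes had an unadjusted p under 0.05. With the mouse as a block 1 of the 64 had (Eif4a3), a smaller share than the 2293 of all genes that had. The differences ran from -0.22 ± 0.15 (SE) for Eef2 to 0.39 ± 0.49 for Eif5a on the log2 scale. That of Eif1a was 0.05 ± 0.20. Differences of the size of these errors could not be detected in this fit, which had 3 mice a genotype and no mouse term. With the mouse as a block the SE could be smaller. For Eif4a1 it was 0.12, against 0.30 without the block. In the block fit 0 of the 64 genes were called as well.

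Genes that act beside these factors were read from lists written by role. Of the 9 enzymes and cofactors that make hypusine on eIF5A and diphthamide on eEF2, 7 fell over both genotypes (77.8%, beside 19.6% of all genes) and none rose (beside 25.8%) by limma. Dph1, a subunit of the enzyme of the first diphthamide step, had a log2 fold change of -1.07 ± 0.11 (SE), adjusted p = 2.85e-05, and Dph2, its partner, of -0.90 ± 0.15 (SE), adjusted p = 5.19e-04. Dohh and Dhps, the hypusine enzymes, were among the falls, at -0.42 and -0.33, while Dph3 (-0.17) and Dnajc24 (0.12) were not called. The list median was -0.38. Of 11 termination and ribosome rescue genes 6 fell (54.5%: Etf1, Gspt1, Abce1, Pelo, Mcts1 and Mcts2) and 2 rose (18.2%: Gspt2 and Gtpbp2). These shares stood beside 19.6% and 25.8% of all genes. The release factor gene Gspt1 fell and its paralog Gspt2 rose, with log2 values of -0.70 and 1.55 (limma adjusted p = 5.83e-04 and 8.32e-06). Abce1, the ribosome splitting ATPase, had a log2 fold change of -0.99 ± 0.14 (SE), adjusted p = 2.30e-04.

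Among 15 genes of poly(A) binding and of eIF4A or eIF4E control, 2 fell (Larp1 and Ddx3x) and 5 rose (Paip2, Paip2b, Mknk1, Mknk2 and Rps6kb2). These were 13.3% and 33.3% of the list, where 19.6% of all genes fell and 25.8% rose, so the rises were near the share over all genes. Mknk2, a kinase that phosphorylates eIF4E, had a log2 fold change of 1.23 ± 0.12 (SE), adjusted p = 1.75e-05 by limma. Larp1, which binds mRNAs with 5′ terminal oligopyrimidine tracts, had one of -0.89 ± 0.13 (SE), adjusted p = 2.35e-04. Of the 10 mitochondrial translation factors tested 4 fell (40%: Tufm, Tsfm, Mtrf1 and Mrrf) and 3 rose (30%: Mtif2, Mtif3 and Gfm2). Beside 19.6% and 25.8% of all genes, the rises were near the share over all genes. The largest log2 change was -0.58 for Tufm, the mitochondrial counterpart of Eef1a1. Of the 2 eIF2 phosphatase subunits, Ppp1r15a and Ppp1r15b, none was called by limma, with log2 values of 0.19 and -0.14.

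The 250 bases ahead of the start site were searched for 3 motifs on both strands in the promoters of RefSeq (GRCm38.p6), where 49 of the 64 genes matched by symbol, with 64 promoters in all. The E-box CACGTG, the site bound by MYC with MAX and by related factors, was found ahead of 11 of the 49 genes (22.4%). In the RefSeq promoter set it was ahead of 6.86% of 27025 genes. Counted by promoter these were 13 of 64 (20.3%) against 6.02% of 32851. The promoter set, which the shares of all genes for the other motifs also use, was not limited to genes expressed in these cells. The shares are thus not matched for expression. A gene counted when any of its promoters held the motif. The 11 genes were Eef2, Eef2k, Eif1b, Eif3f, Eif3k, Eif4a1, Eif4e, Eif4g1, Eif4h, Eif5a and Eif5a2. By response, 3 of the 19 matched genes that fell over both genotypes held the motif, 2 of the 9 that rose and 6 of the 21 not called. The 60-base windows shown are from genes of each response, chosen among those that also lie ahead of the gene in GENCODE vM21, with every E-box in capitals. Eef2k fell, Eef2 and Eif5a2 rose, and Eif3f was not called over both genotypes. Eif4a1 was lower in 6 of 6 mice. It was not called over both genotypes (limma adjusted p = 0.12) but was with the mouse as a block (0.00441). In the T/F fit it was called (limma adjusted p = 0.0115).
Eef2k, chr7:120842771-120842830, plus strand: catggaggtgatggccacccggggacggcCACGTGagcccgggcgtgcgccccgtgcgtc
Eef2, chr10:81176561-81176620, plus strand: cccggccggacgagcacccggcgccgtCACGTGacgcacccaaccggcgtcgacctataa
Eif5a2, chr3:28781108-28781167, plus strand: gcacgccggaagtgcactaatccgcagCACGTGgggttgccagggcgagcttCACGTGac
Eif4a1, chr11:69672580-69672639, minus strand: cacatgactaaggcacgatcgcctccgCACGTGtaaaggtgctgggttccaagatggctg
Eif3f, chr7:108934320-108934379, plus strand: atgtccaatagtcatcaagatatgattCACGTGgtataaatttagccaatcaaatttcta
The motif began 31 bases ahead of the RefSeq start of Eef2k and 43 bases ahead of that of Eef2. The ETS core CCGGAAG, read on both strands, was ahead of 12 of the 49 genes (24.5%), against 7.83% of all, with 5 of 19 among the falls, 2 of 9 among the rises and 5 of 21 among those not called. The CRE palindrome TGACGTCA was ahead of 0 of the 49, against 1.77% of all. A match is a string of letters and says nothing of binding in these cells.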

How the data were processed

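RNA of 12 libraries was analysed, from 3 D/F and 3 T/F mice with CCS1477 and DMSO each. The authors deposited gene-level TPM, made with kallisto on mm10 per the labels, and the paper names AltAnalyze for processing. The kallisto settings, index and version are not given in the sources used here. The labels name both ribosome depletion and a stranded mRNA kit. TPM keeps no read numbers, so depth is unknown, no count model was fitted, and the precision of a value is the spread between mice.

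The 64 genes were matched by Ensembl identifier to GENCODE vM21. limma 3.58.1 (R 4.3.3) was run on log2(TPM + 1) with eBayes without trend, two-sided, on the genes whose mean reached 1 TPM in 1 or more of the groups compared, with Benjamini-Hochberg adjustment over all of them. A fold change on this scale understates changes of low genes. The fits without a mouse term were checked on simulated data. These had no pairing by mouse and held changes larger than those of the 64 genes, so smaller changes were not covered. The response to CCS1477 against DMSO was fitted for each genotype and over both, and the difference of responses and the genotypes with DMSO were tested. Ratios had an exact sign-flip permutation test. The limit for a call was an adjusted p of 0.05, and changes past 2-fold were counted again over both genotypes.

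The labels give the mouse, so samples with the same replicate number in a genotype are paired. After subtraction of group means, libraries of the same mouse correlated across genes at 0.35 to 0.67, and libraries of different mice at up to 0.14. The main fits had no mouse term, as no pairing is stated in the methods, and the fit with the mouse as a replicate block is given beside them.

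Genes given by library are up to 7 falls and 7 rises with the largest change in the genotype with the smaller one, among those called over both genotypes, changed the same way in 6 mice and at 5 TPM or more in the higher group of each genotype, together with Eif4e, Eif4a1, Eif4a2, Eif4g1, Eif4ebp1, Eif5a, Eif2s1, Eif3a, Eef1a1, Eef2 and Eef2k. The lists name up to 2 largest changes, and further genes in them and the Eif1a to Eif1ax pair were chosen after their values were seen. The genes, lists and rules were chosen with earlier results of these data known. Shared sequence was counted as the share of a gene's 31-base words, over its GENCODE vM21 transcripts, that occur in another gene. Alternatives changed the pseudocount, filter, scaling, variance model, samples fitted together and the mice included. One of the cell type markers is not reported here.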

Additional observations from a re-analysis of the deposited data

How the results depend on the processing

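In D/F 11.6% of all genes were called without a mouse term and 39.3% with the mouse as a replicate block. The block moved the D/F count of falls among the 64 from 6 to 23 and of rises from 0 to 5. Beside the genes above it also called, by limma, the D/F values of Eif3a (adjusted p = 0.0245), Eif5a (0.0346), Eif5a2 (0.0106), Eif3j2 (0.0149) and Eif4ebp3 (0.0470) and the T/F values of Eif4ebp3 (0.0168) and Eef1akmt2 (0.0364), and it changed no other call among the genes printed by library. Fitting the 4 groups together gave 20 falls and 4 rises in D/F and 15 falls and 2 rises in T/F, where the fit of T/F alone gave 32 and 6. The share of all genes called moved the same way, from 11.6% to 31.9% in D/F and from 43.4% to 24.3% in T/F. One D/F rise was called with a filter at 5 TPM, with quantile normalization or with a trend in eBayes (1 each). In these fits 17.1%, 18.4% and 14.0% of all genes were called in either direction. Leaving out each replicate in turn gave 0 to 9 falls and 0 to 2 rises in D/F, 19 to 26 falls and 1 to 5 rises in T/F, and 23 to 31 falls and 5 to 10 rises over both genotypes. The share of all genes called ran over 0 to 24.6%, 20.9% to 33.7% and 36.3% to 55.4% in the same order. With 5 mice the sign-flip test cannot go below 0.0625, so no ratio could pass, and the mean log2 changes ranged from -0.21 to -0.15 for Eif4a1/Eif4a2, -0.50 to -0.44 for Eif4e/Eif4ebp1, -0.51 to -0.38 for Eif4ebp1/Eif4ebp2, -0.56 to -0.50 for Eif4g1/Eif4g3, -1.48 to -1.24 for Eif5a/Eif5a2, -0.79 to -0.57 for Eif2s1/Eif2ak3 and 1.502 to 1.76 for Eef2/Eef2k. Quantile normalization turned the sign of Eef1a1, to -0.0837 in T/F (adjusted p = 0.62 by limma) and -0.12 over both genotypes (adjusted p = 0.24), and moved the median of the 64 genes over both genotypes from -0.15 to -0.10. Rescaling each library to its median gene gave -0.21. The cause of these shifts was not tested. The counts for the difference between genotypes and for genotype with DMSO were 0 in each alternative. Depth is unknown, 3 mice a genotype limit what could be called, and transcripts sharing sequence with other genes are less certain.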
